A study of Homo sapiens with 32 samples.

Results

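The transcripts of 8 keratins and of the keratin-associated protein gene KRTAP2-3 were followed in HGrC1 cells exposed to perfluorooctane sulfonate (PFOS). These 9 genes (KRT7, KRT8, KRT17, KRT18, KRT19, KRT34, KRT80, KRT81 and KRTAP2-3) were picked by symbol out of 18583 gene rows with values. The members were chosen by their symbols with earlier results of these data in view, and KRT17 was selected on its lower level in the PFOS groups at 12 weeks, so the 12-week PFOS values of KRT17 are a description without a test. Of the 9 members, 8 passed the filter on low counts, and KRT34 did not.

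HGrC1 is an immortalized, non-luteinized human granulosa cell line. The cells of 4 vials were each split into a vehicle control, which received 0.05% DMSO, and groups that received PFOS at 0.01 µM, at 0.1 µM and at 1 µM with every passage, and RNA was sequenced after 6 and 12 weeks, which made 32 libraries in 8 groups of 4. All groups, controls included, grew in medium with serum and a 100 nM hormone, named as estradiol in the labels and as testosterone in the study's methods. A single cell line carries none of the other cells of a follicle, and the replicate number marks the vial. Total counts lay between 17907057 and 18553350 per library. Granulosa markers summed to between 103 and 130 TPM (transcript levels scaled for gene length and library size) in the 32 libraries. Most of this sum was GJA1, at a mean of 77.2 TPM, followed by AMH at 13.7 TPM and KITLG at 11.9 TPM. HSD17B1, INHBA, INHA and AMHR2 were at 5.65, 3.83, 1.58 and 0.04 TPM. The defining markers FOXL2, NR5A1 and CYP19A1 were at 0.63, 0.09 and at or near 0 TPM. Markers of ovarian surface or mesothelial cells, such as MSLN and LRRN4, summed to between 280.03 and 405 TPM.

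Keratins are the intermediate filament proteins of epithelial cells. A filament is built from pairs of one type I chain (KRT17, KRT18, KRT19 and KRT34 among the members) and one type II chain (KRT7, KRT8, KRT80 and KRT81). KRT8 and KRT18 are the usual pair of simple epithelia and are known from granulosa cells, whereas KRT17 is best known from stressed or regenerating epidermis and skin appendages, and KRT34, KRT81 and KRTAP2-3 from the hair shaft.

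The genes lie in the 2 keratin clusters of the human genome, given here in GRCh38.p14 coordinates of RefSeq. KRT17 lies at chr17:41619442-41624575 and KRT19 at chr17:41523617-41528308, with KRT34 at chr17:41377669-41383816 and KRTAP2-3 at chr17:41059240-41060114 in the same band, 17q21.2. KRT7 (chr12:52233243-52255853), KRT80 (chr12:52168996-52192014), KRT81 (chr12:52285913-52291534), KRT8 (chr12:52897191-52949860) and the type I gene KRT18 (chr12:52948855-52952906) lie in 12q13.13. KRT8 and KRT18 overlap by 1006 bases, and KRT81 lies wholly within the span of KRT86, so reads of these neighbours could be divided between them. Promoter windows were given for 3 members, KRT8, KRT34 and KRTAP2-3, each from 250 bases before to 50 bases after a start site. Only for KRTAP2-3 is that site the start of the gene span given above. The windows of KRT8 (chr12:52926420-52926719) and KRT34 lie inside their gene spans and do not cover the span starts. The windows of KRTAP2-3, the member with the largest fitted difference between PFOS and control, and of KRT34, the other hair gene with a window, are shown with the letters TATAAA in capitals. RefSeq positions are chr17:41060065-41060364 and chr17:41382257-41382556, both on the minus strand.
KRTAP2-3: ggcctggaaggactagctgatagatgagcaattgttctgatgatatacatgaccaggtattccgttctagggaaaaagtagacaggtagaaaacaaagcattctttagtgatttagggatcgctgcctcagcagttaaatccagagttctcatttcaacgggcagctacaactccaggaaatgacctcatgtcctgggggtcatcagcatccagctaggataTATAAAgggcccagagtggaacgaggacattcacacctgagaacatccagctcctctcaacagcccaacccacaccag
KRT34: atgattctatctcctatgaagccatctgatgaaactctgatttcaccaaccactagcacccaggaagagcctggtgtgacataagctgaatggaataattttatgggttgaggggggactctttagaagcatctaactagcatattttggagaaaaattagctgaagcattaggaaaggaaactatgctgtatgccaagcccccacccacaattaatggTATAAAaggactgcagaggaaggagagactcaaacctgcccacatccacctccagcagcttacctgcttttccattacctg
The motif TATAAA was chosen after the sequences were seen and was searched on both strands. It began 28 bases before the start site of the window in KRTAP2-3 and 31 bases before it in KRT34, and was not in the KRT8 window. It was found in 11.5% of 35116 promoter windows of the same length. The AP-1 letters TGANTCA, found in 7.71% of all windows, and the letters GCGTG of the aryl hydrocarbon receptor element, found in 36.5%, were in none of the 3 windows.

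The line expressed mainly keratins of simple epithelia, with KRT17 beside them. On the TPM scale, which corrects for length, KRT8 had the highest mean level over the 32 libraries (3416 TPM, range 2948 to 3986), followed by KRT18 (2613 TPM, 2351 to 2831) and KRT19 (2047 TPM, 1713 to 2456). KRT7 averaged 1091 TPM (678 to 1547) and KRT17 averaged 578 TPM (302 to 1006). KRT80, a type II keratin of a broad set of epithelia, stood at 83.2 TPM, far above the 3 hair-associated genes. These were low, with KRTAP2-3 at 1.58 TPM, KRT81 at 0.685 TPM and KRT34 at 0.242 TPM. For comparison, the mesenchymal filament gene VIM averaged 2069 TPM, close to KRT19. The remaining keratin rows were led by KRT10 (12.4 TPM), the KRT17 neighbour KRT16 (5.68 TPM) and KRT15 (1.38 TPM), and the markers of squamous or basal epithelium, KRT5, KRT14 and KRT6A among them, summed to no more than 0.34 TPM in any library. The hair cortex markers summed to between 0.57 and 1.55 TPM, most of it KRT86. The sum of type I keratin transcripts was 0.988 to 1.37 times that of type II, with a mean ratio of 1.15.

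The members differed in how much they varied. Over all 32 libraries the coefficient of variation of the library-scaled counts (CPM, scaled for total and composition) was 4.32% for KRT18, 4.82% for KRT80, 5.64% for KRT8 and 8.78% for KRT19, but 21.5% for KRT7 and 36.3% for KRT17. The low-count genes KRT81 and KRTAP2-3 had 28.1% and 46.2%. KRT34 had 0 counts in 4 libraries, which allows up to 3 counts each, and never more than 10, so that differences in KRT34 between groups were not detectable at this depth.

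**Figure D1:**
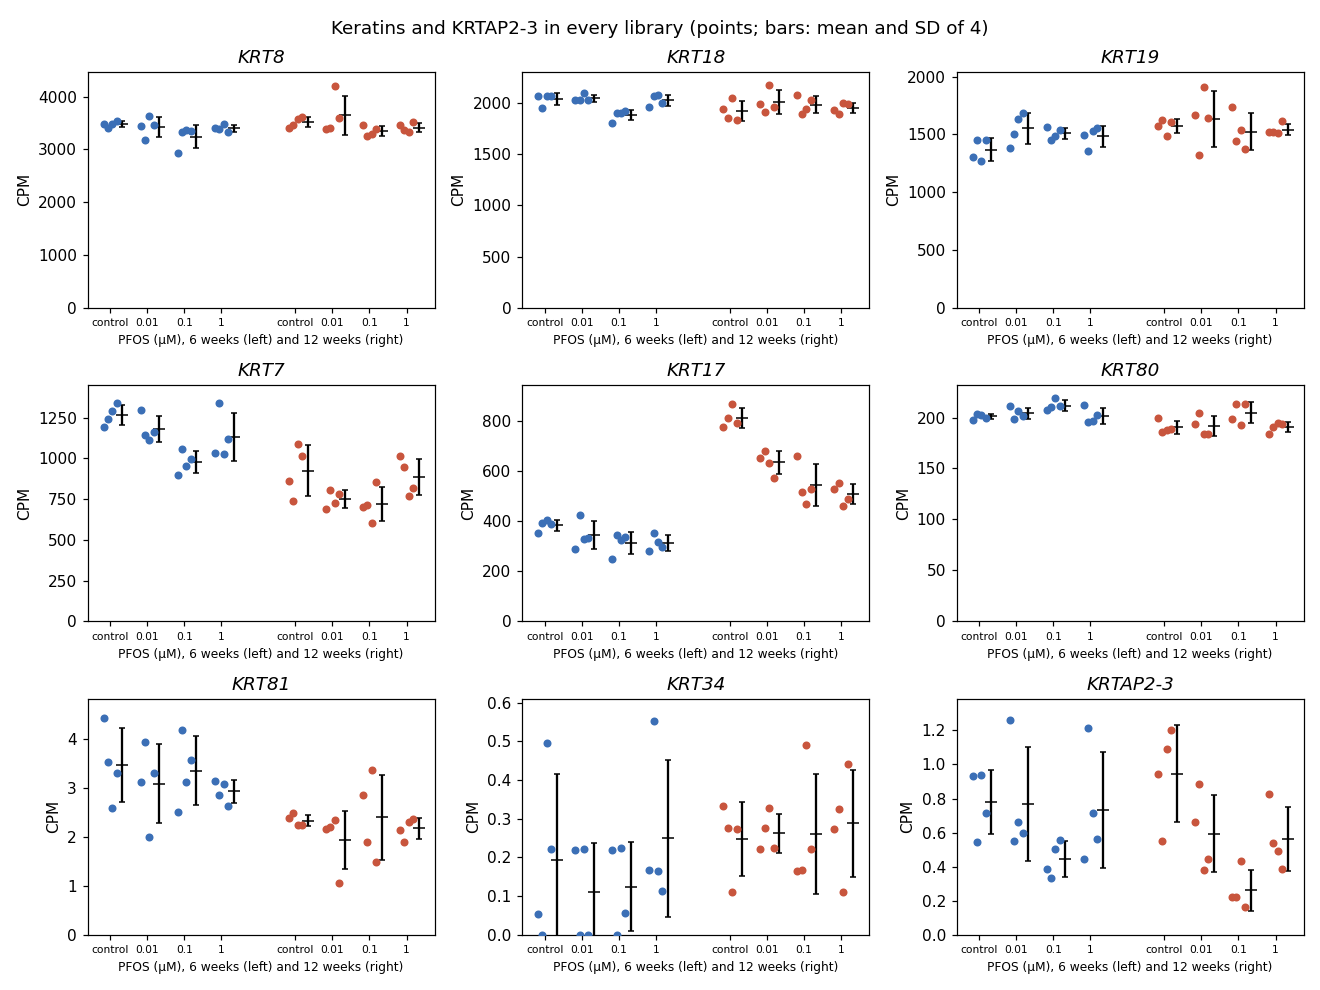
CPM of each member in every library by group, with 6 weeks in blue and 12 weeks in red; black bars give mean and SD of 4 libraries, cut at 0 for KRT34. The 16 libraries of KRT17 at 12 weeks lie between 461 and 866 CPM and the 16 at 6 weeks between 247 and 424 CPM, while KRT8, KRT18 and KRT80 have coefficients of variation of 4.32% to 5.64% over the 32 libraries.

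KRT17, the type I keratin that the members were gathered around, had its highest level in the 12-week control. In the 6-week control it stood at 353, 393, 403 and 386 CPM in vials 1 to 4, and in the 12-week control at 775, 809, 866 and 793 CPM. The ranges did not overlap, as was so for 31.3% of all 12988 genes, and every vial was higher in KRT17 at 12 weeks. KRT17 rose by 1.08 on the log2 scale in the control (SE 0.11, edgeR adjusted p = 3.3e-08), a 2.11-fold difference. It also rose in the groups given 0.01 µM (0.88 on the log2 scale, edgeR adjusted p = 5.64e-07), 0.1 µM (0.80, 2.82e-06) and 1 µM PFOS (0.71, 2.47e-05). The 12-week libraries in these comparisons are also those on which KRT17 was selected, so its differences between the times are a description. Their p-values are not independent of that choice. Passage number, time in culture and time of collection cannot be told apart in a comparison of 12 with 6 weeks.

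At 12 weeks each PFOS group was lower in KRT17 than the control in all 4 vials, without overlap of the ranges. Of all 12742 genes tested, 2.81%, 8.33% and 6.61% likewise did not overlap with 0.01, 0.1 and 1 µM, in either direction. With 0.01 µM PFOS the libraries held 652, 681, 631 and 573 CPM, with 0.1 µM 661, 514, 467 and 530 CPM, and with 1 µM 527, 554, 461 and 488 CPM. The group means were 811 ± 39.4 CPM in the control and 635 ± 45.7, 543 ± 83.1 and 507 ± 41.1 CPM in order of concentration (SD, n = 4). The step from the control to 0.01 µM did not overlap, whereas the ranges of neighbouring PFOS groups did. The fitted log2 differences from control were -0.36, -0.58 and -0.68 (SE 0.08 each), equal to 0.78, 0.668 and 0.624 times the control level. In bulk RNA, fewer KRT17-expressing cells and less KRT17 RNA per cell cannot be told apart.

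At 6 weeks the same direction was seen at a lower level, but no KRT17 difference passed the test. The libraries held 289, 424, 330 and 334 CPM with 0.01 µM, 247, 345, 323 and 336 CPM with 0.1 µM and 280, 353, 316 and 295 CPM with 1 µM PFOS. Only the 0.01 µM group overlapped the control range. With 1 µM the gap was narrow, 352.5 CPM in vial 2 against 352.8 CPM in the control of vial 1. Of all 12836 genes, 3.93%, 12.2% and 6.85% did not overlap with 0.01, 0.1 and 1 µM. Vial 2 was the highest of its group in KRT17 at each concentration. The log2 differences were -0.16, -0.30 and -0.30 (SE 0.13 each, edgeR adjusted p = 0.734, 0.203 and 0.325). With vial as a block in the fit, the 0.1 µM difference passed the threshold (-0.31, edgeR adjusted p = 0.0178). The change in the PFOS difference between 6 and 12 weeks was -0.20, -0.28 and -0.37 (SE 0.16 each) for the 3 concentrations, which is given as a description because it contains the 12-week values on which KRT17 was selected.

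KRT17 was set beside the other keratins, which is again a description of the contrast it was selected on. From its log2 difference from control, the median log2 difference of the 6 other tested keratins was subtracted. With 0.01, 0.1 and 1 µM PFOS this gave -0.38, -0.58 and -0.64 at 12 weeks, and -0.15, -0.22 and -0.28 at 6 weeks. On another scale, the median level of these 6 keratins was subtracted from KRT17 in each library, as log2(CPM + 1). The 12-week means on that scale were -0.56 in the control and -0.80, -0.95 and -1.20 with 0.01, 0.1 and 1 µM. The spread between replicates on that scale was 0.15 (SD). The other 6 keratins had median log2 differences of 0.02, 0.00 and -0.04 at 12 weeks, with ranges of -0.31 to 0.06, -0.37 to 0.10 and -0.10 to 0.02. With 0.01 µM, KRT7 (-0.31) and KRT81 (-0.27) lay close to KRT17 (-0.36). KRT17 made up a changing part of the type I transcripts, 9.25% ± 0.52 in the 6-week control and 17.3% ± 0.63 in the 12-week control, with 13.7% ± 1.72, 12.2% ± 1.10 and 11.6% ± 1.02 in the 12-week PFOS groups (SD, n = 4).

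**Figure D2:**
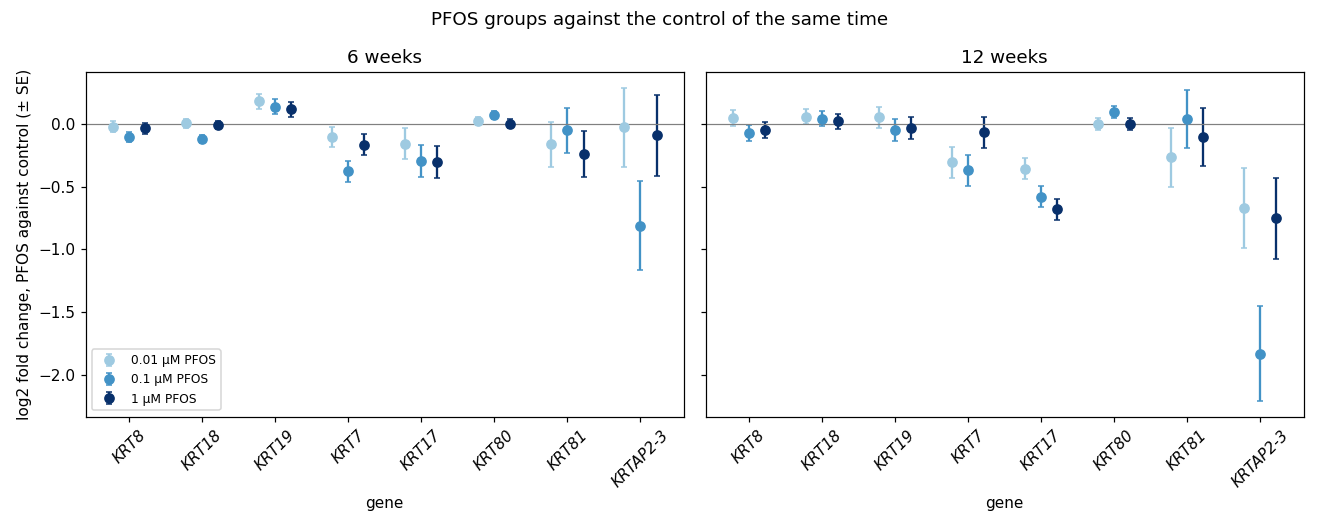
Log2 fold changes of the 8 tested members, each PFOS group against its own control, with standard errors; shades of blue mark the concentration. At 12 weeks KRT17 lies at -0.36, -0.58 and -0.68, KRTAP2-3 at 0.1 µM lies at -1.83, and KRT8, KRT18, KRT19 and KRT80 stay within 0.10 of 0.

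KRT7, a type II keratin of simple and glandular epithelia, went the opposite way to KRT17 between the times. The 6-week control libraries held 1196, 1241, 1293 and 1341 CPM and the 12-week control libraries 861, 736, 1089 and 1015 CPM. These ranges did not overlap, as was so for 31.3% of all genes. KRT7 fell by 0.45 on the log2 scale in the control (SE 0.11, edgeR adjusted p = 0.00215), and fell by 0.65, 0.44 and 0.35 in the 0.01, 0.1 and 1 µM groups (edgeR adjusted p = 3.71e-05, 0.00224 and 0.0167). The call in the 1 µM group was lost without replicate 2 (edgeR adjusted p = 0.0619) or replicate 4 (0.0985). The ratio of KRT17 to KRT7 transcripts on the TPM scale went from 0.329 ± 0.014 in the 6-week control to 0.973 ± 0.161 in the 12-week control, and was 0.923 ± 0.098, 0.831 ± 0.148 and 0.627 ± 0.041 with 0.01, 0.1 and 1 µM PFOS at 12 weeks (SD, n = 4). The ranges with 0.01 and 0.1 µM overlapped that of the control.

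Among the PFOS groups, KRT7 was lowest relative to control with 0.1 µM at 6 weeks. Those libraries held 901, 1057, 956 and 997 CPM, all below the control. In that comparison 12.2% of all 12836 genes did not overlap, in either direction. KRT7 fell by 0.38 on the log2 scale (SE 0.08, edgeR adjusted p = 0.0255). With 0.01 and 1 µM at 6 weeks the log2 differences were -0.10 and -0.16 and did not pass. At 12 weeks they were -0.31, -0.37 and -0.07 with 0.01, 0.1 and 1 µM (edgeR adjusted p = 0.566, 0.183 and 0.899), so KRT7 followed no order of concentration. KRT18, the type I partner of KRT8, was also lower with 0.1 µM at 6 weeks, at 1803, 1904, 1900 and 1917 CPM against 2069, 1951, 2068 and 2068 CPM in the control. It fell by 0.12 on the log2 scale (SE 0.03, edgeR adjusted p = 0.0405). Both of these 6-week calls were lost when replicate 1, 3 or 4 was left out (edgeR adjusted p from 0.0597 to 0.233) and in a fit of all 32 libraries (0.102 for KRT7 and 0.186 for KRT18).

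Transcripts of liver genes moved with the same 6-week comparison. AFP, AHSG, ALB, APOB, GPC3 and AMBP summed to at most 1 count in any of the 8 libraries with no PFOS or 0.01 µM at 6 weeks, to 72 to 174 counts in 23 others, and 919 counts in the 12-week control of vial 3. KRT8 and KRT18 are also made by liver cells. Over the 32 libraries KRT18 had at least 32922 counts and KRT8 at least 53413. With 1 µM PFOS at 6 weeks, where liver transcripts were also present, KRT18 stood at 1964 to 2075 CPM, and in the 12-week control of vial 3 at 2052 CPM, the highest of its group. Their part in the 6-week differences was not tested. Without the 12-week control of vial 3, the log2 differences of KRT17 at 12 weeks were -0.32, -0.55 and -0.64 with 0.01, 0.1 and 1 µM.

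KRT8 and KRT80 were called by edgeR in no comparison. The group means of KRT8 lay between 3244 and 3645 CPM, and no PFOS or time difference passed the test, the largest PFOS difference being -0.10 on the log2 scale with 0.1 µM at 6 weeks (edgeR adjusted p = 0.156). KRT80 differed from control by at most 0.10 on the log2 scale, with 0.1 µM PFOS at 12 weeks (edgeR adjusted p = 0.327). Between the times with 0.01 µM PFOS, the KRT80 difference of -0.09 had an edgeR adjusted p of 0.0576 and passed with DESeq2 (adjusted p = 0.0411), without replicate 2 and without the 12-week control of vial 3. KRT19, the type I keratin without a tail domain, rose between the times in the control by 0.20 on the log2 scale (SE 0.08, edgeR adjusted p = 0.0419), from 1304, 1452, 1266 and 1449 CPM to 1576, 1621, 1484 and 1603 CPM. This call was lost without a filter on low counts (edgeR adjusted p = 0.0653) and without replicate 1, 3 or 4. In the PFOS groups KRT19 differed by 0.01 to 0.08 between the times, and none passed.

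**Figure D3:**
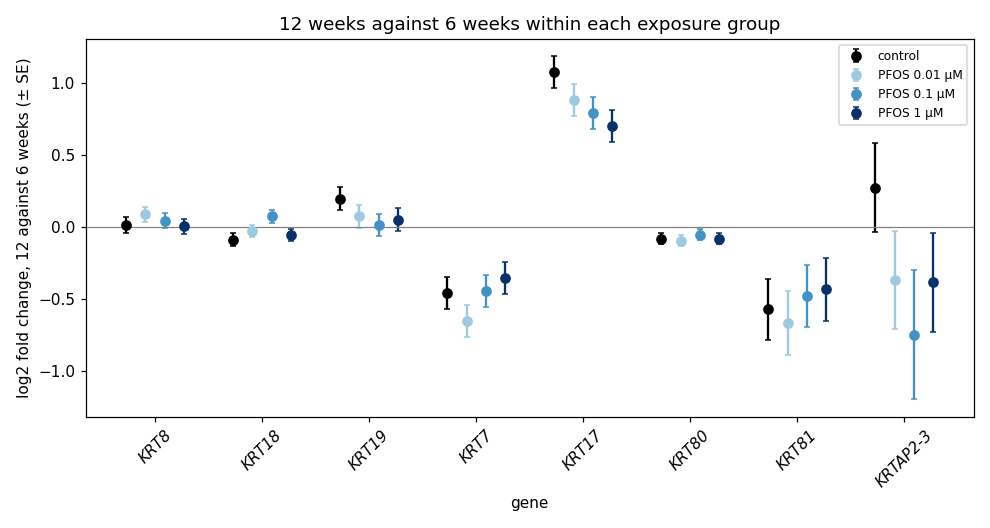
Log2 fold changes of the 8 tested members, 12 against 6 weeks, within the control (black) and the 3 PFOS groups (blue), with standard errors. KRT17 lies at 0.71 to 1.08 and KRT7 at -0.65 to -0.35 in all 4 groups, while KRT8 lies within 0.09 of 0.

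KRTAP2-3, a matrix protein gene of the hair shaft, had the largest fitted PFOS difference of the members, at few counts. The 12-week control libraries held 17, 10, 19.9 and 22 counts and the 0.1 µM libraries 4, 4, 8 and 3 counts. These ranges did not overlap, as was so for 8.33% of all genes. KRTAP2-3 fell by 1.83 on the log2 scale (SE 0.38, edgeR adjusted p = 0.0179). Of 46 KRTAP rows with values only this gene was taken, with earlier results in view, so the call may repeat that choice. With 0.01 and 1 µM at 12 weeks the log2 differences were -0.67 and -0.75 (edgeR adjusted p = 0.586 and 0.519), and at 6 weeks with 0.1 µM it was -0.81 (0.192), with 7, 6, 9 and 10 counts against 17, 10, 17 and 13. The 0.1 µM group was the lowest of its time at both times. The 12-week call was lost without replicate 3 (edgeR adjusted p = 0.122), without replicate 4 (0.215) and without the 12-week control of vial 3 (0.0855). KRTAP2-3 was given 99.5% of the estimated counts of the near-identical KRTAP2 genes, at a mean of 11.6 counts per library. Whether reads of these copies were divided correctly was not tested.

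KRT81, a type II hair keratin, was lower at 12 than at 6 weeks. In the control it went from 80.6, 65, 47 and 60 counts to 43, 45, 41.4 and 41 counts, and it fell by 0.57 on the log2 scale (SE 0.21, edgeR adjusted p = 0.0333). It fell by 0.67 with 0.01 µM PFOS (edgeR adjusted p = 0.0147), and the log2 differences with 0.1 and 1 µM were -0.48 and -0.43 (0.0703 and 0.139). Reads of KRT81 and KRT86 cannot be fully separated, since KRT81 took between 55.9% and 88.1% of the sum of both in single libraries. With KRT86 and KRT83 added to KRT81 the control difference was -0.41 (edgeR adjusted p = 0.0659), and those with 0.1 and 1 µM PFOS passed (-0.52 and -0.47, edgeR adjusted p = 0.0164 and 0.0412). The control call was also lost without replicate 1, 2 or 4 or the 12-week control of vial 3, and the 0.01 µM call without replicate 2 or 4. No PFOS difference in KRT81 passed at either time.

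Counted over the members, calls were read beside all genes tested. At 6 weeks, edgeR called 0, 2 and 0 of 8 members with 0.01, 0.1 and 1 µM PFOS, where it called 0%, 4.24% and 0.28% of 12836 genes. With 0.01 µM, 1232 genes and 1 member had an unadjusted p under 0.05, and DESeq2 called 1 gene and 0 members. With 1 µM, 1757 genes and 1 member had an unadjusted p under 0.05, and DESeq2 called 129 genes and 0 members. With 0.1 µM at 6 weeks, 7 of the 8 members had an unadjusted p under 0.05, as had 2665 of all 12836 genes, and 5 of 8 did not overlap the control (4 below, 1 above), against 12.2% of all genes. At 12 weeks the calls were 0, 2 and 1 of 8 members, where 0%, 1.07% and 0.22% of 12742 genes were called. The KRT17 calls among them repeat the choice of KRT17, and of the 7 other members 0, 1 and 0 were called. That 1 was KRTAP2-3, which was also chosen with earlier results in view. With 0.01 µM at 12 weeks, 3 members, KRT17 among them, had an unadjusted p under 0.05, as had 1080 of 12742 genes, and DESeq2 called 0 genes.

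Between 6 and 12 weeks many genes changed, so member calls there are close to the background. In the control, 4 of 8 members were called (KRT17 and KRT19 higher, KRT7 and KRT81 lower), where 36.6% of 12988 genes were called. With 0.01, 0.1 and 1 µM PFOS, 3, 2 and 2 members were called, beside 42.7%, 40.3% and 30.1% of genes. KRT17 was among the called members in each group, and its calls rest on 12-week libraries used in its selection. For the difference of the PFOS effect between the times, 0 of 8 members were called by edgeR at each concentration, beside 0%, 0.208% and 0.123% of genes. There, 0, 1 (KRT18) and 1 (KRT17) members had an unadjusted p under 0.05, beside 972, 1879 and 1571 of all 12988 genes. The KRT17 value there is a description, since this difference contains the 12-week values on which KRT17 was selected. DESeq2 called 0 members.

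**Figure D4:**
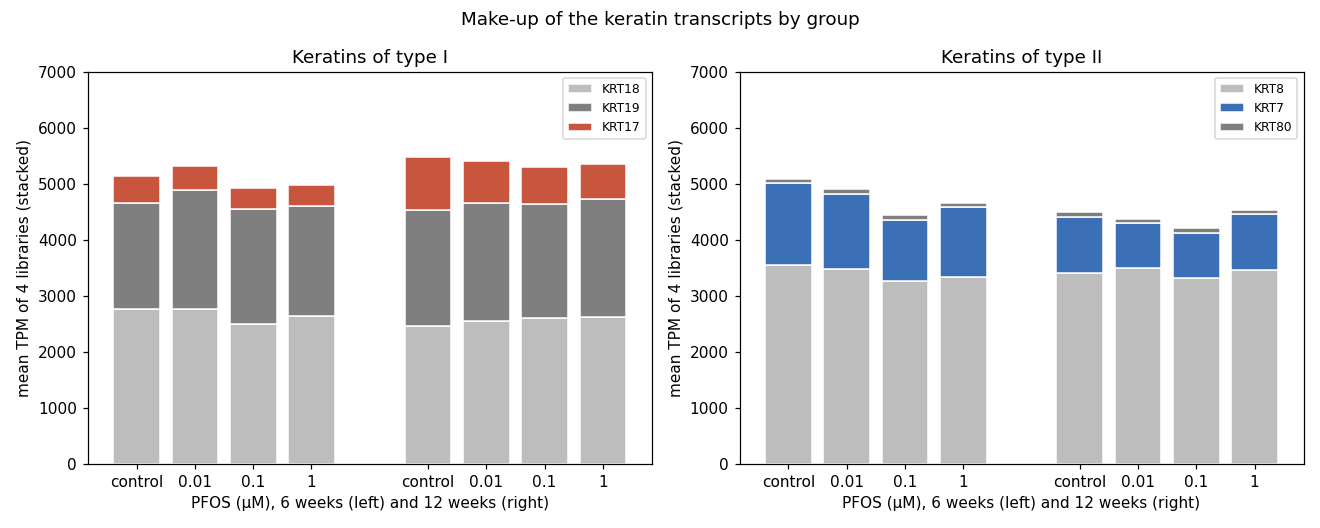
Mean TPM of the 3 main type I keratins (left) and the 3 main type II keratins (right) by group, stacked, each the mean of 4 libraries. The KRT17 part is widest in the 12-week control, at 955 TPM against 476 TPM in the 6-week control, and the KRT7 part is narrower at 12 weeks, at 1001 TPM against 1449 TPM in the controls.

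The patterns of the members over libraries were compared as Pearson correlations of log2(CPM + 1), each centred on the mean of its time, over 32 libraries that share vials and groups. The filament partners KRT8 and KRT18 had r = 0.63. KRT17 had r = 0.44 with KRT7, 0.47 with KRTAP2-3, 0.13 with KRT18 and -0.04 with KRT19, and KRT7 had r = 0.66 with KRTAP2-3. Of the keratins, KRT16, which lies 6675 bases from KRT17, was most like it (r = 0.65, rank 37 of 12156 genes), but the level of KRT16 was similar at both times (a log2 difference of 0.04 in the control, edgeR adjusted p = 0.865) and its PFOS differences at 12 weeks, -0.23, -0.30 and -0.32, did not pass (edgeR adjusted p = 0.733, 0.429 and 0.615).

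The 5 genes most like KRT17 over the 32 libraries were CSRNP1 (r = 0.83), which encodes a nuclear protein, F2RL3 (0.82), a protease-activated receptor, TIPARP (0.81), a mono-ADP-ribosyltransferase, USP2 (0.79), a deubiquitinase, and CYP1B1 (0.79), a cytochrome P450 that hydroxylates estradiol. Each of the 5 had a lower mean in the 3 PFOS groups than in the control at 12 weeks, which follows from the way they were picked. With 1 µM PFOS the mean level of TIPARP was 96.2 ± 3.44 CPM against 187 ± 25.9 CPM in the control, and that of CYP1B1 was 274 ± 17.7 against 453 ± 88.1 CPM (SD, n = 4). They differed from KRT17 between the times. In the control the log2 differences of 12 against 6 weeks were 0.43 for TIPARP, 0.44 for CSRNP1 and 0.28 for USP2, beside 1.08 for KRT17. Those of F2RL3 (0.30) and CYP1B1 (-0.10) did not pass (edgeR adjusted p = 0.225 and 0.426). With 0.1 and 1 µM PFOS, F2RL3, at a mean of 2.38 CPM, fell (-0.66 and -0.65, edgeR adjusted p = 0.0262 and 0.0257), as did CYP1B1. CSRNP1 and USP2 had positive differences there, and TIPARP had 0.11 and -0.25.

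Genes whose products anchor, bind or accompany keratin filaments were called by edgeR against control only with 0.1 µM PFOS at 6 weeks. Of 17 desmosome and linker genes, such as DSP (14.8 TPM) and JUP (55.5 TPM), 12 were tested. In each of the 6 PFOS comparisons edgeR and DESeq2 called 0 of them. From 0 to 3 had an unadjusted p under 0.05, as had from 1080 of 12742 to 2665 of 12836 genes. Of the other intermediate filament genes, 10 of 13 were tested, and with 0.1 µM at 6 weeks 1 rose and 2 fell: the lamin genes LMNB1 (0.13, edgeR adjusted p = 0.0431) and LMNA (-0.18, 0.00315), and INA (-0.46, 0.0451), which encodes internexin. Of 10 genes for keratin-binding or regulating proteins, edgeR called DNAJB6, a chaperone of KRT18, with 0.1 µM at 6 weeks (-0.16, edgeR adjusted p = 0.0453). Among 13 epithelial junction genes, of which 10 were tested, ELF3, an epithelial transcription factor, rose in the same comparison (0.66, edgeR adjusted p = 0.0301). In that comparison edgeR called 4.24% of all genes, and DESeq2 called 3, 2 and 1 genes of the filament, binding and junction lists. In the other 5 PFOS comparisons edgeR called 0 genes of these 3 lists, and DESeq2 called 0 to 2. There, 0 to 4 per list had an unadjusted p under 0.05, as had 1080 to 1956 of all genes tested.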

How the data were processed

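RNA of HGrC1 cells was measured in 32 poly(A) libraries, prepared strand-specifically. Per the labels and methods, the authors removed low-quality reads, aligned with HISAT2 2.0.4 and Bowtie2 2.2.5 to GRCh38.p14, and deposited expected counts estimated with RSEM 1.2.8. Whether counting used strand is not given in the sources used here. The deposited TPM values were used for levels between genes. The deposited FPKM and normalized values were not used.

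Expected counts were rounded and tested with edgeR 4.0.16 (R 4.3.3; TMM, filterByExpr, robust quasi-likelihood test, two-sided). PFOS groups were compared with the control of their time in a fit of 16 libraries. Times, and differences of PFOS effects between times, were compared in a fit of 32 libraries. P-values were adjusted by Benjamini-Hochberg over all genes tested, and a call was an adjusted p at or under 0.05. CPM are TMM-scaled counts. DESeq2 1.42.0 was one of the alternatives. The fit was tested on simulated data. Replicate pairs within groups (48) held 0 identical libraries.

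The members and lists were chosen with earlier results of these data known. Named were all members, other keratins with a mean of at least 1 TPM, the 5 genes with the highest correlation with KRT17 among those with at least 1 CPM, and up to 4 called genes per list.

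The labels give each vial 1 flask divided into the 4 groups, so replicate numbers pair the libraries. Deviations from group means of equal numbers correlated on average from 0.0542 to 0.14 between groups at 6 weeks and from -0.177 to 0.158 at 12 weeks. The depth was even, and differences of genes with under about 10 counts rest on few reads; the limit of 3 counts for a count of 0 covers counting error only.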

Additional observations from a re-analysis of the deposited data

Results flagged for a closer look

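Of 72 sets of 4 libraries (9 genes in 8 groups), 8 held a library whose gap to the nearest other, as a part of the range, was above the critical value of Dixon's test; chance alone gives about 1 in 20 such sets. In the 0.1 µM group at 6 weeks the library of vial 1 was lowest for KRT8 (2926 CPM, the others 3339 to 3371) and for KRT18 (1803 CPM, the others 1900 to 1917). It was also the lowest of its group for KRT17, at 247 CPM, and the KRT18 call was lost without replicate 1. KRT18 was lowest in the 6-week control of vial 2 (1951 CPM, the others 2068 to 2069) and highest with 0.01 µM at 6 weeks in vial 3 (2094 CPM, the others 2027 to 2031). KRT19 was highest with 1 µM at 12 weeks in vial 4 (1612 CPM, the others 1508 to 1522). The low-count genes gave the other 3. KRT34 with 1 µM at 6 weeks was highest in vial 2 (0.552 CPM, 10 counts), KRT81 with 0.01 µM at 12 weeks was lowest in vial 4 (1.06 CPM, 19 counts), and KRTAP2-3 with 0.01 µM at 6 weeks was highest in vial 1 (1.26 CPM, 23 counts).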

How the results depend on the processing

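With RLE normalization, no filter on low counts, DESeq2, near-identical copies added or the replicate block, the 19 counts and differences compared stayed within 1.5 times or 1 SD of the values reported. The block on vial, as the pairing of the libraries allows, called 3 members instead of 2 with 0.1 µM PFOS at 6 weeks (KRT17 added). It called 2 and 1 with 0.1 and 1 µM at 12 weeks, and 4 in the 12-to-6-week comparison of the control. No other call of a member changed with it. The KRT17 calls against control at 12 weeks repeat the choice of KRT17. Requiring 10 counts in every library left 1 member called with 0.1 µM at 12 weeks (KRT17), since KRTAP2-3 was no longer tested. The fit of all 32 libraries left 0 members called with 0.1 µM at 6 weeks; the cause was not tested.

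Leaving out 1 replicate number, or the 12-week control of vial 3, gave 0 to 2 members with 0.1 µM at 6 weeks. With 1 µM at 6 weeks it gave 0 to 1 (KRT7 without replicate 2). At 12 weeks it gave 0 to 2 with 0.1 µM and 1 in each case with 1 µM. That 1 was KRT17, which was selected on this comparison, so its steady call is a description. The 0 with 0.1 µM at 12 weeks came without replicate 3 or 4, and those at 6 weeks without replicate 1, 3 or 4. The log2 differences of KRT17 at 12 weeks ranged from -0.40 to -0.32, -0.71 to -0.48 and -0.73 to -0.60 with 0.01, 0.1 and 1 µM. Between 12 and 6 weeks the counts ranged from 2 to 4 in the control and in the 0.01 µM group, 2 to 3 with 0.1 µM and 1 to 2 with 1 µM. KRT17 minus the median of the other keratins ranged from -0.64 to -0.41 with 0.1 µM at 12 weeks, lowest in size without replicate 3. No called value changed direction. Over all genes, DESeq2 called 129 where edgeR called 36 with 1 µM at 6 weeks, and 282 and 89 where edgeR called 136 and 28 with 0.1 and 1 µM at 12 weeks. Depth limits KRT34, KRT81 and KRTAP2-3, whose highest counts were 10, 80.6 and 23.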
